A study of Mus musculus with 6 samples.

Results

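Esrrb, Tet1, Tet2, Sall4 and Rif1 are genes of the pluripotency network or close to it, and CpG methylation was measured along their bodies by whole-genome bisulfite sequencing of mouse embryonic stem cells. The 5 bodies were taken by gene name as fixed intervals of genome build mm9. They held 2175 of the 7065841 CpG sites that had at least 5 reads in each of 3 cell lines. All lines derived from cells without the DNA methyltransferases DNMT1, DNMT3A and DNMT3B (genotype DNMT1,3a,3b-triple-null, TKO), grown in serum with LIF on feeder cells or gelatine. One line re-expressed only DNMT3A2, the isoform of DNMT3A common in embryonic stem cells, and another only DNMT3B1, the full-length form of DNMT3B. The remaining line expressed DNMT3B1 and additionally lacked SETD2 (genotype TKO, SETD2-KO), and is called the SETD2 knockout. The promoter that drove each enzyme, the amount of enzyme and the number of clones per line were not stated in the labels used. Whether the cells kept stem cell identity was not tested, since methylation counts hold no expression markers.

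The labels list 2 sequencing runs per line, and the values come as 1 set per line, so no p-value between lines was computed. Intervals on levels are exact 95% binomial intervals of counting error. Intervals on ratios also take in the spread between 500 bp clusters of CpGs. Neither covers the spread between cultures. Over all sites compared, the methylated share of reads was 7.28% for the DNMT3A2 line, 2.75% for the DNMT3B1 line and 5.87% for the knockout of SETD2. To see past these unequal totals, each ratio of 2 lines is given as a relative log2 ratio, which is the log2 ratio of the levels in a gene minus the log2 ratio over all sites compared. A value of 0 means that the gene followed the rest of the genome. The total reads at CpG sites were 200364080, 188661576 and 200947834. In the 5 intervals the mean coverage of a compared site was 9.35 to 13.2 reads in the DNMT3A2 line, 11.3 to 13.9 in the DNMT3B1 line and 17.6 to 21.3 in the knockout.

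DNMT3A and DNMT3B add methyl groups to CpGs that carry none, and DNMT1 copies the marks after replication. SETD2 travels with elongating RNA polymerase II and trimethylates lysine 36 of histone H3 over transcribed gene bodies, a mark that the PWWP domain of the DNMT3 enzymes can bind. The title of the series asks for the part DNMT3B has in genic methylation, and these genes are known as active in mouse embryonic stem cells. ESRRB, an orphan nuclear receptor, and SALL4, a zinc finger protein, are transcription factors of the self-renewal network. TET1 and TET2 oxidise 5-methylcytosine to 5-hydroxymethylcytosine, which bisulfite sequencing reads as methylated. RIF1 acts in the timing of DNA replication and in the choice of repair pathway at broken DNA. Gene starts rich in CpGs usually stay free of methylation, while gene bodies are methylated.

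Start regions of Tet2, Tet1 and Esrrb are shown because they mark where transcription begins relative to the intervals. The sequences are RefSeq promoters of build GRCm38.p6, 250 bases before to 50 after the start, 5′ to 3′ in the direction of transcription, with each CpG in capitals. The first lies at chr3:133544341-133544640 on the minus strand, the second at chr10:62887275-62887574 on the minus strand and the third, an inner start of Esrrb, at chr12:86421394-86421693 on the plus strand.
Tet2: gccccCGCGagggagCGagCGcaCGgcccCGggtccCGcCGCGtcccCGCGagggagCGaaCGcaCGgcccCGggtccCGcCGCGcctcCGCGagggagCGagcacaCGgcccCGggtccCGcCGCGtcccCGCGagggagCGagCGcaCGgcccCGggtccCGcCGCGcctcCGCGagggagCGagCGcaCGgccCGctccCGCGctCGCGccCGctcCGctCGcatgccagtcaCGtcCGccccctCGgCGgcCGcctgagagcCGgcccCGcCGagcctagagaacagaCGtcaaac
Tet1: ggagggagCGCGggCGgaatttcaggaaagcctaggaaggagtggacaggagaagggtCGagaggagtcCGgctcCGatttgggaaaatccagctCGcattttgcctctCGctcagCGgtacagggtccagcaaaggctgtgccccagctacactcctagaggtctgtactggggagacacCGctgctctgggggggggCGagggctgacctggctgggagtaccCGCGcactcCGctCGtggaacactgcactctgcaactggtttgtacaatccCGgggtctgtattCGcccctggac
Esrrb, inner start: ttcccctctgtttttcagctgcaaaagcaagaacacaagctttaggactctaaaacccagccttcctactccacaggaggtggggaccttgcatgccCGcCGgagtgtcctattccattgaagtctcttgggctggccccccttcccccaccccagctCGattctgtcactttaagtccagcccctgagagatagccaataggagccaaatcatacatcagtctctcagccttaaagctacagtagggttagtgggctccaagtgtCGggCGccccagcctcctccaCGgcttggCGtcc
Of 32851 RefSeq promoters, 0.152% held at least the 57 CpGs of the Tet2 sequence, 31.4% at least the 17 of Tet1 and 52.1% at least the 7 of Esrrb (CG, which reads the same on both strands). Each promoter was found at a single place of its chromosome in the mm9 site table, where all its CpGs recurred at the same spacing with no further site between them.

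In the 3 starts shown, between 0 and 4 reads per line were methylated. Of the Tet2 CpGs, 15 had enough reads, and 0 of 144 reads were methylated with DNMT3A2 (upper limit 2.53%), 4 of 206 with DNMT3B1 (0.532% to 4.90%) and 0 of 293 in the SETD2 knockout (upper limit 1.25%). For Tet1, 0 of 74, 0 of 71 and 0 of 95 reads were methylated at 7 CpGs, in the same order of lines. At the inner Esrrb start the counts were 0 of 69, 0 of 44 and 1 of 72 at 5 CpGs. Esrrb also has an outer RefSeq start with 7 CpGs, none of which had enough reads in all 3 lines. Without the read minimum, 6 of 61 reads there were methylated with DNMT3A2, 0 of 53 with DNMT3B1 and 0 of 27 in the knockout. The knockout reads cover only 2 of the 7 CpGs, since the others were not listed for it. The Tet2, Tet1 and outer Esrrb starts lay 1.35 kb, 9.07 kb and 2.93 kb before the intervals, so the intervals hold the bodies without these starts, and the inner Esrrb start lay 57.6 kb inside.

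The bodies differed in size, CpG content and depth. The Esrrb interval spans chromosome 12 from 87705 to 87860 kb, with 1186 compared sites of 2052. The Tet1 interval spans chromosome 10 from 62269 to 62341 kb (351 of 791 sites) and that of Tet2 chromosome 3 from 133128 to 133206 kb (232 of 624 sites). On chromosome 2, Sall4 spans 168574 to 168592 kb (313 of 473 sites) and Rif1 51930 to 51977 kb (93 of 265 sites). Sites left out had too few reads, apart from 0 to 2 sites per gene with too many. Esrrb and Rif1 are transcribed towards higher coordinates and the other genes towards lower ones. The median number of CpGs in the 1 kb around a site was 29 in Sall4, 15 in Esrrb, 13 in Tet1, 11 in Tet2 and 7 in Rif1, against 13 over all sites compared.

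With DNMT3A2 each body had a level under the 7.28% of the genome, although the binomial interval of Rif1 included it. With the spread over clusters, the intervals of Esrrb (5.38% to 7.76%) and Tet2 (4.74% to 8.28%) included it too. The level was 6.46% in Esrrb (1015 of 15711 reads, 6.08% to 6.86%) and 6.26% in Tet2 (164 of 2618, 5.37% to 7.26%). It was 5.75% in Rif1 (50 of 870, 4.30% to 7.51%) and 5.17% in Tet1 (223 of 4317, 4.52% to 5.87%). Sall4 was lowest at 3.13% (125 of 3994, 2.61% to 3.72%), and its binomial interval lay below those of the other 4 genes. With the spread over clusters the interval of Sall4 (2.14% to 4.58%) overlapped those of Rif1 (4.06% to 8.13%) and Tet1 (4.22% to 6.33%). Among the other 4 genes, neighbours in this order had overlapping intervals.

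The DNMT3B1 line gave another order. Tet2 was highest at 4.44% (116 of 2612 reads, 3.68% to 5.30%), followed by Rif1 at 3.83% (44 of 1149, 2.80% to 5.11%) and Sall4 at 2.83% (123 of 4345, 2.36% to 3.37%). Tet1 stood at 2.58% (107 of 4140, 2.12% to 3.11%), and Esrrb was lowest at 1.88% (295 of 15729, 1.67% to 2.10%). The binomial intervals of Tet2 and Rif1 lay above the 2.75% of the genome, that of Esrrb lay below it, and those of Sall4 and Tet1 included it. Clusters that hold several CpGs of the same reads widen these intervals, to 2.91% to 6.78% for Tet2, still above the genome, and 2.02% to 7.27% for Rif1, which then included it.

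In the SETD2 knockout the 5 bodies lay between 3.43% and 4.90%. The level was 4.90% in Esrrb (1042 of 21258 reads, 4.62% to 5.20%), 4.82% in Tet1 (298 of 6179, 4.30% to 5.39%) and 4.53% in Tet2 (191 of 4214, 3.92% to 5.20%). Rif1 had 3.98% (70 of 1761, 3.11% to 4.996%) and Sall4 3.43% (228 of 6656, 3.00% to 3.89%). The binomial interval of Sall4 lay below those of Esrrb, Tet1 and Tet2, but its interval over clusters overlapped theirs. All 5 levels were below the 5.87% of the genome, and their binomial intervals excluded it. With the spread over clusters, only the intervals of Esrrb (4.19% to 5.73%) and Sall4 (2.44% to 4.81%) did.

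**Figure D1:**
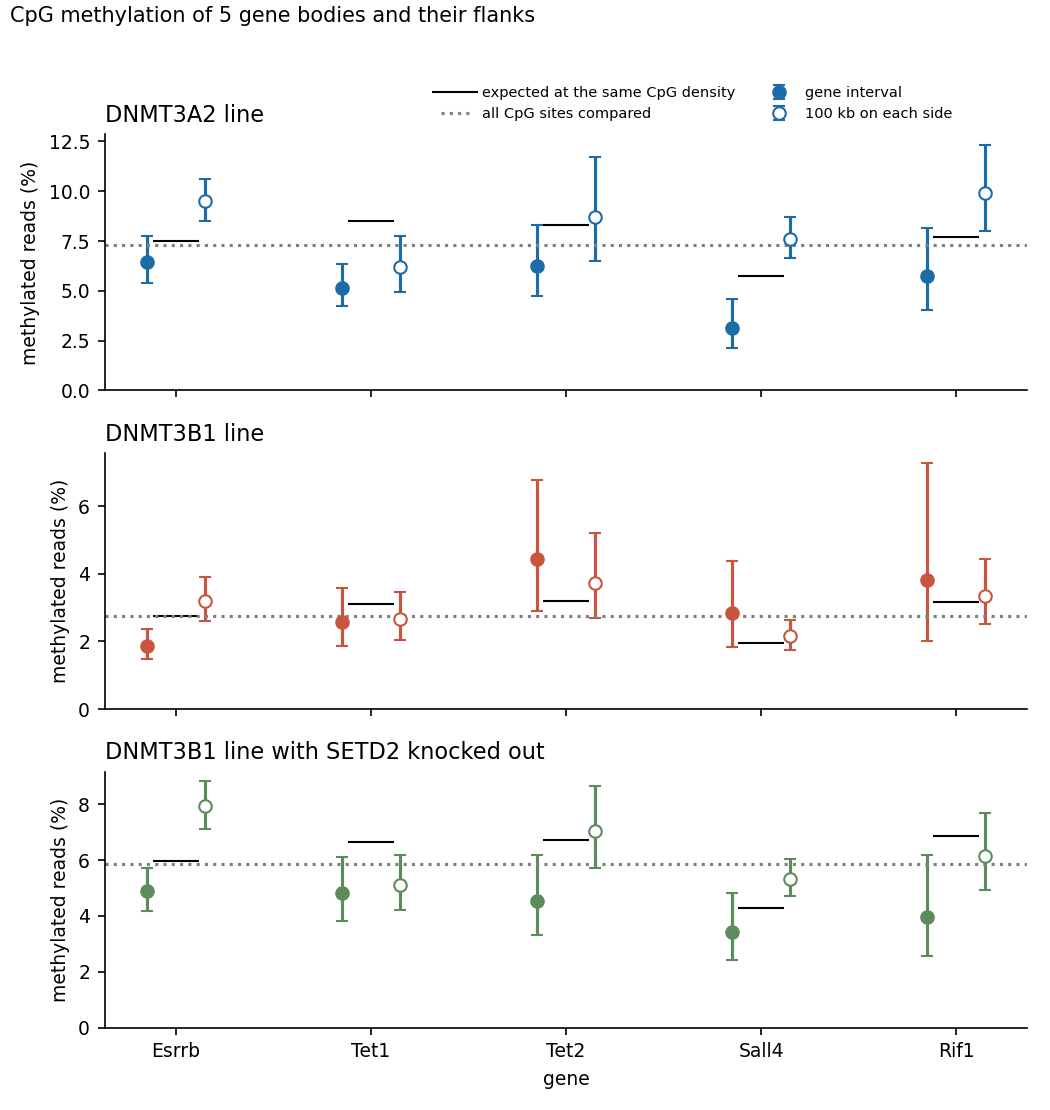
Methylated reads in percent (y axis, from 0) for 5 genes (x axis) in each line, with filled points for the gene interval, open points for the 100 kb on each side, short bars for the level expected at the same CpG density and a dotted line for all sites compared. Error bars are 95% intervals over 500 bp clusters of CpGs. With DNMT3A2 all 5 filled points lie below the open ones, whereas with DNMT3B1 those of Tet2 (4.44%), Sall4 (2.83%) and Rif1 (3.83%) lie above.

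The comparison of DNMT3B1 with DNMT3A2 asked whether these bodies were preferred by either enzyme. Sall4, Tet2, Rif1 and Tet1 lay on the side of DNMT3B1 and Esrrb on that of DNMT3A2. Sall4 had a relative log2 ratio of 1.26 (95% interval 0.49 to 2.02), a relative excess of 2.39-fold, and nearly equal levels in the 2 lines (0.905 times). For Tet2 the ratio was 0.91 (0.19 to 1.63), or 1.87-fold. Rif1 had 0.82 (-0.32 to 1.96) and Tet1 0.40 (-0.13 to 0.93), and both intervals included 0. Esrrb was relatively lower with DNMT3B1, at -0.38 (-0.70 to -0.06).

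An interval above 0 was thus found for 2 of 5 genes and below 0 for 1. Among all windows of the genome with at least 20 compared sites, at the lengths of Esrrb, Tet1, Tet2, Sall4 and Rif1, intervals lay above 0 for 11.5%, 9.44%, 9.67%, 6.77% and 8.44%. They lay below 0 for 5.74%, 5.31%, 5.32%, 6.31% and 5.3%. The middle value of the 5 genes was that of Rif1 (0.82), whose interval included 0. The median over all windows was between -0.03 and 0.10 at the 5 lengths. Over the 30 tiles of 10 kb inside the genes, 15 of them in Esrrb, the median was 0.11 against -0.07 over all tiles. A ratio at least as high as in Sall4 was seen in 6.51% of windows of its length, and for Tet2 the share was 14.2%. Windows matched the genes in length only. In the same order of genes, their median number of compared sites was 305, 160, 169, 64 and 121. The genes held 1186, 351, 232, 313 and 93. Ratios from fewer sites scatter more, and no share of windows given here was matched for this. The DNMT3B1 call for Tet2 was lost against its flanks (0.72, -0.15 to 1.60) and at a minimum of 10 reads, where the value was 1.05 (-0.05 to 2.15). The call for Esrrb was lost without the first 31 kb of the gene (-0.13, -0.50 to 0.24).

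The comparison of the SETD2 knockout with the DNMT3B1 line asked whether the bodies changed with SETD2. Across the genome the knockout level was 2.13 times that of the DNMT3B1 line. In Tet2 it was 1.02 times, in Rif1 1.04 times and in Sall4 1.21 times, close to the level without the knockout. Tet2 had a relative log2 ratio of -1.06 (-1.64 to -0.48) and Sall4 one of -0.82 (-1.37 to -0.26). Rif1 had -1.04 (-2.23 to 0.16), an interval that included 0. The level of Tet1 was 1.87 times higher in the knockout, a relative log2 ratio of -0.19 (-0.68 to 0.30), and that of Esrrb 2.61 times, a ratio of 0.29 (-0.04 to 0.63).

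Intervals below 0 were found for 2 of 5 genes, Tet2 and Sall4, and above 0 for none. Over all windows, in the order Esrrb, Tet1, Tet2, Sall4 and Rif1, the shares below 0 were 4.37%, 4.62%, 4.48%, 5.21% and 4.64%. The shares above 0 were 6.87%, 6.94%, 6.74%, 6.79% and 6.58%. A ratio as low as that of Tet2 was seen in 2.38% of windows. The middle value of the 5 genes was that of Sall4 (-0.82), against a median of 0.07 to 0.09 over windows. Over the 30 tiles of 10 kb inside the genes, 15 of them in Esrrb, the median was 0.09, as over all tiles. Both comparisons hold the same DNMT3B1 counts with opposite sign, so a deviation of those counts in a gene would move both values. The Tet2 value kept its sign and an interval below 0 under all 12 other settings. For Sall4 neither ratio was called at its CpG-poorer sites alone. At its 81 sites with fewer than 20 CpGs per kb, 15 of 964 reads were methylated with DNMT3B1, and the ratios were 0.53 (-0.89 to 1.94) for DNMT3B1 over DNMT3A2 and 0.23 (-0.77 to 1.23) for the knockout over DNMT3B1. The first of these intervals included the 1.26 of the whole body. At the 232 denser sites the levels were 3.24% with DNMT3A2, 3.19% with DNMT3B1 and 3.29% in the knockout. A difference in ratio between the sparser and the denser sites was not tested. A single 500 bp cluster held 26 of the 123 methylated DNMT3B1 reads of Sall4. Without it the ratio of DNMT3B1 over DNMT3A2 was 1.06 (0.24 to 1.87) and that of the knockout over DNMT3B1 -0.66 (-1.26 to -0.05).

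Directly compared, the SETD2 knockout and the DNMT3A2 line did not differ beyond the intervals in any of the 5 bodies. The relative log2 ratio was -0.09 (-0.32 to 0.15) in Esrrb and 0.21 (-0.18 to 0.60) in Tet1. It was -0.16 (-0.76 to 0.45) in Tet2, 0.44 (-0.23 to 1.11) in Sall4 and -0.22 (-0.99 to 0.55) in Rif1. Differences of the size of those intervals could not be detected at this depth. In windows of these lengths, in the order Esrrb, Tet1, Tet2, Sall4 and Rif1, intervals lay above 0 for 19.2%, 13.5%, 14.1%, 7.78% and 11.1%, and below 0 for 5.59%, 4.48%, 4.44%, 4.87% and 4.37%.

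**Figure D2:**
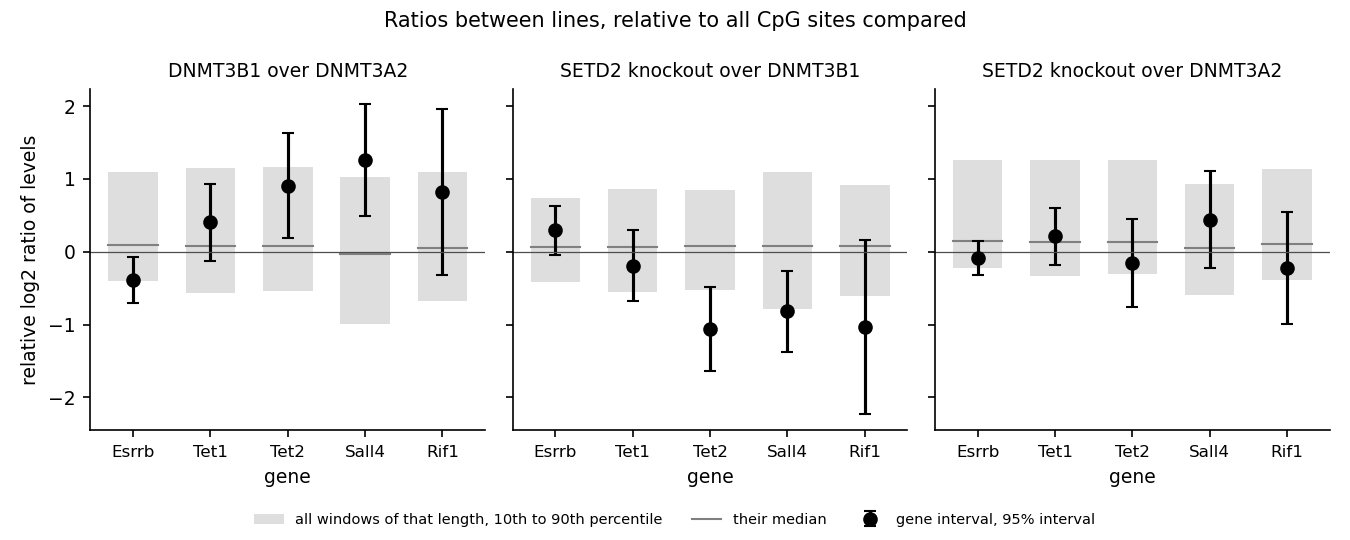
Relative log2 ratios of levels (y axis) for 5 genes (x axis) in the 3 comparisons of lines. Points with bars are the genes with 95% intervals, grey boxes the 10th to 90th percentile of all genomic windows of the same length and grey lines their median. Tet2 (0.91) and Sall4 (1.26) lie above 0 for DNMT3B1 over DNMT3A2 and below 0 (-1.06 and -0.82) for the SETD2 knockout over DNMT3B1.

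Surroundings of 100 kb on each side were used to see whether a gene stood out from its region. By RefSeq they reach into or near Gpatch2l for Esrrb, Ppa2 for Tet2, Atp9a for Sall4, Nmi, Tnfaip6 and Neb for Rif1, and Stox1, Ccar1, Slc25a16, Dna2 and Rufy2 for Tet1. The flanks also include CpG-dense sites just before the intervals. These made up 99 of the 706 compared flank sites for Rif1, 66 of 543 for Tet2, 65 of 1359 for Tet1 and 38 of 1648 for Sall4. Esrrb was less methylated than its flanks in all 3 lines, with log2 ratios of -0.56 (-0.87 to -0.25) with DNMT3A2, -0.76 (-1.21 to -0.32) with DNMT3B1 and -0.69 (-0.97 to -0.42) in the knockout. Windows of that length were lower than their flanks in 11.6%, 7.71% and 8.34% of cases, in the same order.

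Sall4 stood below its flanks with DNMT3A2, by 3.13% to 7.61% (log2 ratio -1.28, -1.86 to -0.70), and in the knockout, by 3.43% to 5.34% (-0.64, -1.16 to -0.12). With DNMT3B1 it had 2.83% against 2.15% (0.40, -0.29 to 1.09). Windows of that length lay below their flanks in 9.62% of cases with DNMT3A2 and 7.45% in the knockout. Rif1 was lower than its flanks with DNMT3A2, at 5.75% against 9.94% (-0.79, -1.38 to -0.20, as in 9.81% of windows), but not with DNMT3B1, at 3.83% against 3.33% (0.20, -0.81 to 1.21). In the knockout Rif1 had 3.98% against 6.16%, with an interval that included 0 (-0.63, -1.34 to 0.08). Tet2 had 4.44% against 3.74% with DNMT3B1 (0.25, -0.52 to 1.02), 6.26% against 8.71% with DNMT3A2 (-0.48, -1.06 to 0.11) and 4.53% against 7.03% in the knockout (-0.63, -1.17 to -0.09, as in 7.67% of windows).

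Tet1 did not differ from its flanks beyond the intervals in any line, with log2 ratios of -0.26, -0.04 and -0.08. That depended on how far the flanks reached. Against 50 kb on each side the gene was higher in all 3 lines, by 0.87 (0.19 to 1.55) with DNMT3A2, 0.90 (0.10 to 1.69) with DNMT3B1 and 1.04 (0.42 to 1.66) in the knockout. In that nearer flank the CpG-dense sites within 10 kb before the interval had 0 of 1061, 1 of 868 and 1 of 1202 reads methylated. Other 10 kb steps there varied, by distance from the gene start. The step from 80 to 90 kb (119 sites) had 0.67%, 0.80% and 0.93%, and that from -50 to -40 kb (95 sites) 1.43%, 0.33% and 1.64%. The step from -40 to -30 kb (32 sites) had 12.2%, 1.75% and 4.98%. Which sites accounted for the change at 50 kb was not tested.

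With the flanks as reference, Sall4 had a log2 difference between DNMT3B1 and DNMT3A2 of 1.68 (0.86 to 2.50), and 5.49% of windows of its length were higher by the same rule. For the knockout over DNMT3B1 the difference was -1.04 (-1.67 to -0.40) in Sall4 and -0.88 (-1.62 to -0.14) in Tet2. Windows were lower in this way in 4.79% and 4.34% of cases at these lengths. The other genes had intervals that included 0 in both comparisons.

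Levels were also set against sites of like CpG density. From genome-wide levels in 6 bins of CpG density, weighted by the reads of each gene, Sall4 was expected at 5.74% with DNMT3A2, 1.94% with DNMT3B1 and 4.29% in the knockout, against 3.13%, 2.83% and 3.43% measured. Tet2 was expected at 8.32%, 3.18% and 6.70%, against 6.26%, 4.44% and 4.53%. Relative to this expectation, DNMT3B1 over DNMT3A2 had a log2 ratio of 1.42 (0.65 to 2.19) in Sall4, 0.89 (0.17 to 1.61) in Tet2 and -0.34 (-0.66 to -0.02) in Esrrb. The knockout over DNMT3B1 had -0.87 (-1.43 to -0.31) in Sall4 and -1.04 (-1.62 to -0.47) in Tet2. Windows passed the same rules in 6.42%, 8.4% and 5.21% of cases for the first comparison and in 5.26% and 4.7% for the second, in the order of the genes given.

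Within single lines, Tet1 was below the density-matched level with DNMT3A2 (5.17% against 8.53%, log2 ratio -0.72, -1.02 to -0.43) and in the knockout (4.82% against 6.63%, -0.46, -0.80 to -0.12). Of windows of its length, 18.9% and 6.9% were lower by that rule. With DNMT3B1 the log2 ratio of Tet1 was -0.27 (-0.75 to 0.20). Esrrb was the only one of the 5 genes whose interval lay below the expectation with DNMT3B1 (1.88% against 2.77%, -0.56, -0.90 to -0.22), as were 10.3% of windows of its length, and it was also below it in the knockout (-0.28, -0.51 to -0.06, windows 8.96%). Tet2 lay below it with DNMT3A2 (-0.41, -0.81 to -0.01, windows 19.6%) and in the knockout (-0.56, -1.01 to -0.11, windows 7.03%). Sall4 did so with DNMT3A2 (-0.88, -1.42 to -0.33, windows 10.1%) and Rif1 in the knockout (-0.79, -1.42 to -0.15, windows 6.29%). None of the 5 genes was above the expectation in any line by this rule.

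Along the genes, Tet1, Tet2 and Sall4 had less methylation at the start than at the end in all 3 lines, though not beyond the interval for Sall4 with DNMT3A2. Each interval was split into 5 equal parts from start to end. In Tet2 the parts had 3.45%, 3.41%, 9.09%, 8.04% and 9.85% with DNMT3A2 and 1.45%, 2.19%, 1.05%, 8.47% and 6.83% with DNMT3B1. The knockout had 2.05%, 3.12%, 2.42%, 6.66% and 7.52%. From the first to the last part the level rose by 6.40 percentage points with DNMT3A2 (1.27 to 11.5), 5.38 with DNMT3B1 (1.80 to 8.95) and 5.46 in the knockout (1.496 to 9.43). In windows of that length, which have no direction, such a rise was found in 10.6%, 7.15% and 7.98% of cases.

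Of the 116 methylated DNMT3B1 reads of Tet2, 47 lay in part 4 and 43 in part 5, and 6, 18 and 2 in the parts before them. A single 500 bp cluster held 19 of the 116. Without it the ratios of the whole body were 0.70 (0.003 to 1.40) and -0.85 (-1.35 to -0.35).

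Sall4 went from 0.157% with DNMT3A2, 0.369% with DNMT3B1 and 0.186% in the knockout in its first part to 3.84%, 5.42% and 5.77% in the fourth. From the first to the last part the level rose by 2.73 points with DNMT3B1 (1.31 to 4.15) and 3.58 in the knockout (1.1998 to 5.97), as in 7.97% and 9.49% of windows, and the difference was 4.84 with DNMT3A2 (-0.04 to 9.73). CpG density moved with this, since sites of the first part had a mean of 47.2 CpGs per kb and those of the last 22.4, and its part in the rise was not tested.

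In Tet1 the level rose from the first to the last part by 4.30 points with DNMT3A2 (1.70 to 6.91), 3.53 with DNMT3B1 (1.01 to 6.05) and 3.40 in the knockout (0.81 to 5.98). Windows of its length rose in 10.3%, 7.03% and 8.1% of cases. Between the ends of 10 equal parts the differences were 2.57, 4.14 and 1.69 points, with intervals that included 0. The last part of Tet1, at its 3′ end, had 7.16% with DNMT3A2, 5.23% with DNMT3B1 and 5.65% in the knockout. With DNMT3B1 the 4 parts before it had 1.70%, 3.86%, 1.64% and 1.37%, with no steady order.

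Rif1 had few reads per part. With DNMT3A2 its level rose from 1.64% (2 of 122 reads) to 9.24% (17 of 184), a difference of 7.60 points (0.91 to 14.3), as in 10.4% of windows. DNMT3B1 gave 3.52%, 3.49%, 3.85% and 6.32% in the first 4 parts and then 1 of 247 reads (0.405%, 0.0102% to 2.23%) in the last. The fourth part held 24 of the 44 methylated DNMT3B1 reads, where the knockout had 17 of 537 reads (3.17%). In the last part the order was the other way, with 20 of 308 reads (6.49%) in the knockout. A single 500 bp cluster held 15 of the 44, and without it the ratio of DNMT3B1 over DNMT3A2 for the body was 0.36 (-0.86 to 1.58) and that of the knockout over DNMT3B1 -0.57 (-1.87 to 0.72).

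Esrrb ran the other way. Its first part, between the outer and the inner start, had 13.4% with DNMT3A2 (349 of 2604 reads), 2.43% with DNMT3B1 and 6.58% in the knockout. In the last part the levels were 3.69%, 1.59% and 3.13%. The level fell by 9.71 points with DNMT3A2 (-13.1 to -6.28) and by 3.46 in the knockout (-5.48 to -1.43), as in 11.3% and 8.43% of windows, and the difference was -0.84 with DNMT3B1 (-2.15 to 0.46). Split at the inner start, a division chosen after the data were seen, the 57.6 kb before it had 9.73%, 2.69% and 6.45%, and the 97.4 kb after it 4.43%, 1.39% and 3.92%. DNMT3B1 over DNMT3A2 had a relative log2 ratio of -0.45 (-0.90 to -0.01) before it and -0.27 (-0.72 to 0.18) after it. For the knockout over DNMT3B1 these were 0.17 (-0.30 to 0.64) and 0.40 (-0.08 to 0.89).

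**Figure D3:**
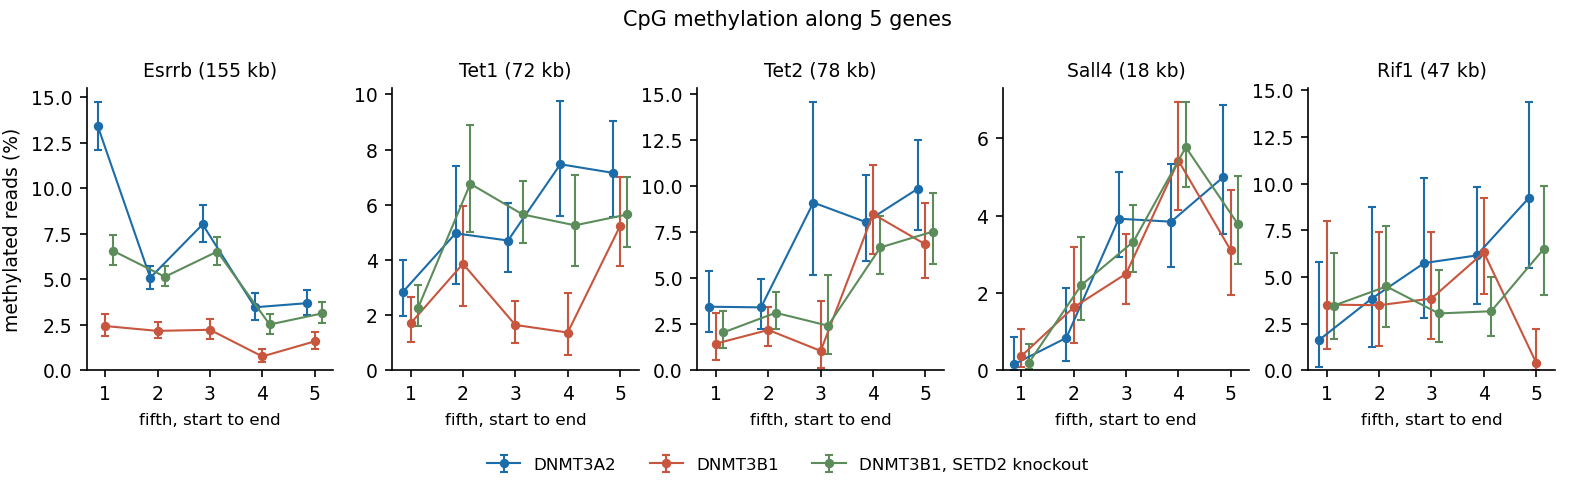
Methylated reads in percent (y axis, from 0, scaled per gene) in 5 equal parts of each gene from start to end (x axis), with exact 95% binomial intervals and 1 colour per line. In Tet2 the DNMT3B1 level is between 1.05% and 2.19% in the first 3 parts and 8.47% in the fourth, while in Esrrb the DNMT3A2 level falls from 13.4% to 3.69%.

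Tiles of 10 kb that lay wholly inside a gene and held at least 20 compared sites numbered 30, of which 15 were in Esrrb. For DNMT3B1 over DNMT3A2, 4 of them were higher by at least 2-fold with an interval above 0, where 5.41% of all 109841 tiles were, and 2 were lower (6.48% of all tiles). The 4 tiles were the single one of Sall4, 2 of Tet2 and 1 of Tet1, and both lower tiles were in Esrrb. For the knockout over DNMT3B1, 1 tile was higher (6.77%) and 4 were lower (4.13%), the latter being 2 of Tet2, 1 of Tet1 and 1 of Rif1. For the knockout over DNMT3A2, 1 was higher (4.85%) and 1 lower (2.89%). At a minimum of 10 reads, 20 member tiles were left. For DNMT3B1 over DNMT3A2, 2 of them were then higher and 3 lower, with a median of -0.11 against -0.08 over all tiles, and none was lower in the knockout than in the DNMT3B1 line.

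The highest and the lowest tile by DNMT3B1 over DNMT3A2 are named for Tet2, Tet1 and Esrrb, and the only tile for Sall4 and Rif1. Such extremes are picked from several tiles. The intervals of the highest and the lowest overlapped in Tet2 and Esrrb, and were narrowly apart in Tet1. Whether the bodies were uneven was not tested. In Tet2 the tile from 133130001 to 133140000, at the 3′ end, had 5.31%, 7.37% and 7.22% methylation in the order DNMT3A2, DNMT3B1 and knockout, a ratio of DNMT3B1 over DNMT3A2 of 1.88 (0.44 to 3.31). Its lowest tile, from 133170001 to 133180000, had -0.07 (-2.45 to 2.31). In Tet1 the tile at the 3′ end, from 62270001 to 62280000, had 6.42%, 5.60% and 4.23%, a ratio of 1.205 (0.24 to 2.17). The next tile of Tet1, from 62280001 to 62290000, had 6.86%, 1.35% and 7.78%, a ratio of -0.94 (-2.09 to 0.21).

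Esrrb ranged from 0.91 (0.24 to 1.58) in the tile from 87740001 to 87750000, with 4.18%, 2.97% and 5.57%, to -1.78 (-4.37 to 0.81) in that from 87830001 to 87840000, where DNMT3B1 had 4 of 815 methylated reads. The Sall4 tile from 168580001 to 168590000 had 2.72%, 2.82% and 3.70%, a ratio of 1.45 (0.50 to 2.40). That of Rif1 from 51960001 to 51970000 had 5.05%, 4.90% and 3.10%, with 1.36 (-0.11 to 2.83) for DNMT3B1 over DNMT3A2 and -1.75 (-3.21 to -0.30) for the knockout over DNMT3B1. Over the 30 tiles the median ratio of DNMT3B1 over DNMT3A2 was 0.11 against -0.07 over all tiles, and that of the knockout over DNMT3B1 was 0.09 in both.

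**Figure D4:**
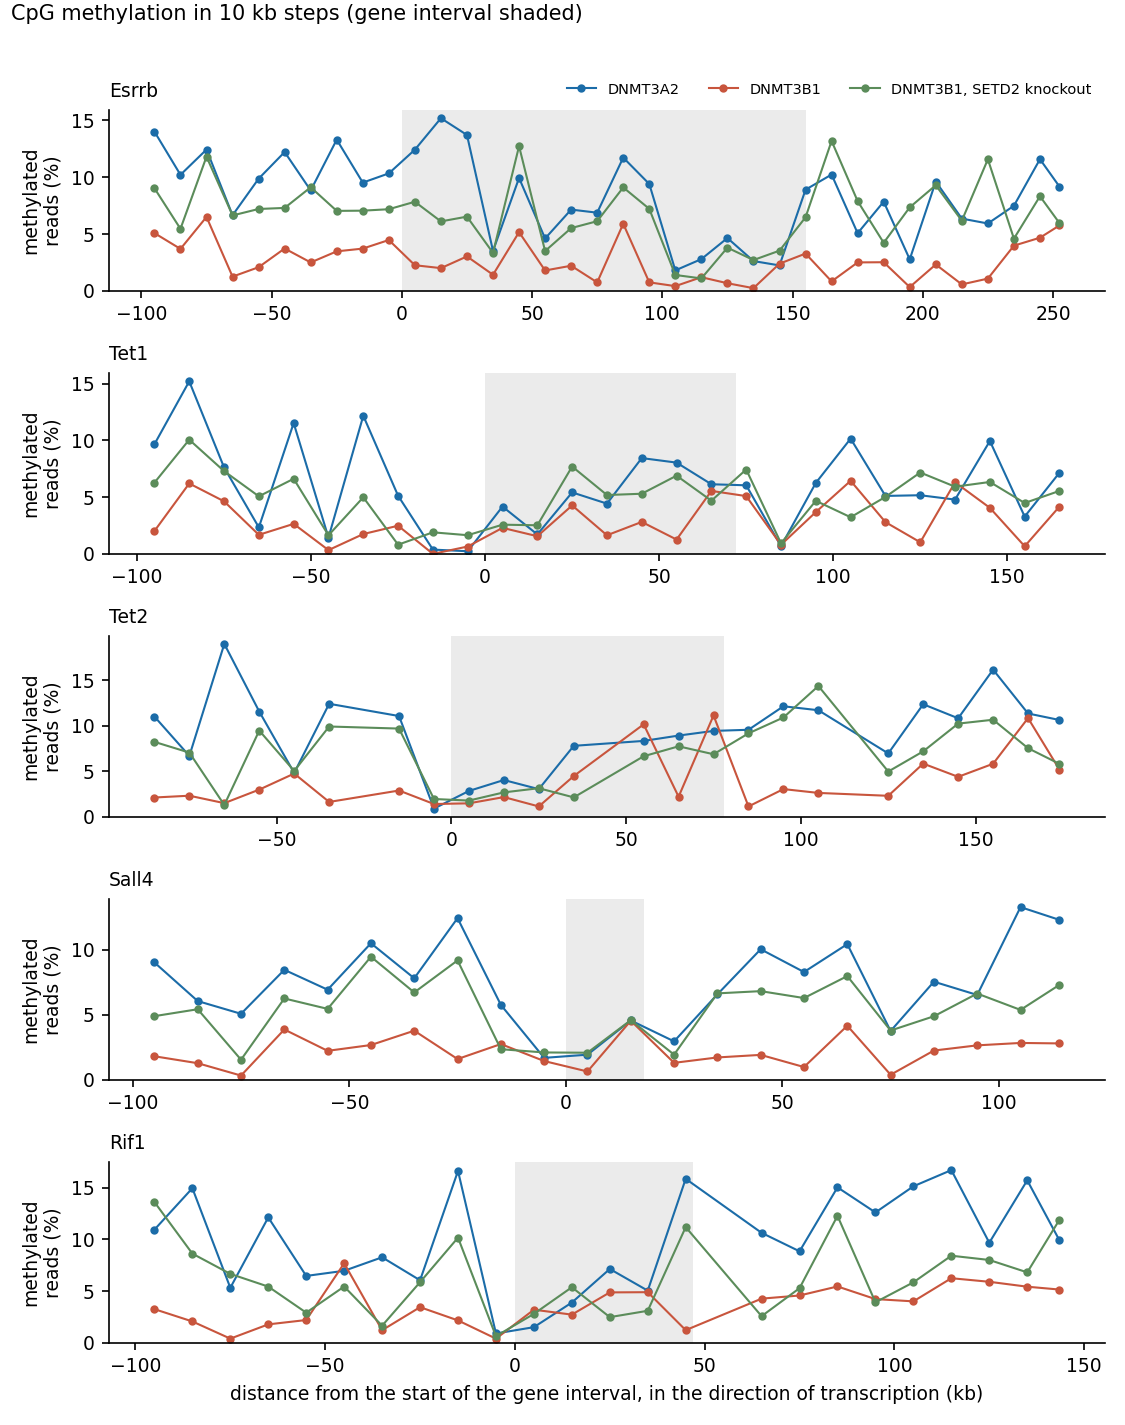
Methylated reads in percent (y axis, from 0) in steps of 10 kb by distance from the start of each gene interval in the direction of transcription (x axis, kb), with the interval shaded and 1 colour per line. Steps with fewer than 10 compared sites are left out, and lines join the remaining ones. In most steps, in the flanks as well as inside the intervals, the DNMT3A2 line is above the DNMT3B1 line. The margin varies by step. In Tet2 DNMT3B1 has 10.2% against 8.35% at 50 to 60 kb but 2.21% against 8.94% at 60 to 70 kb. In Sall4 it has 4.55% against 4.57% at 10 to 20 kb but 0.64% against 1.94% before. The step from 10 to 20 kb reaches into the flank, as the Sall4 interval ends at 18 kb.

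CpG-dense sites, with at least 40 CpGs per kb, lay inside the intervals of Esrrb and Sall4. The 133 compared sites of this kind in Esrrb, in 9 clusters, had 4 of 1828 reads methylated with DNMT3A2 (0.219%, 0.0597% to 0.559%). The counts were 4 of 1879 with DNMT3B1 (0.213%, 0.0580% to 0.544%) and 14 of 2066 in the knockout (0.678%, 0.371% to 1.13%). In Sall4 90 such sites had 2.25% (1.46% to 3.30%), 2.92% (2.11% to 3.92%) and 2.60% (1.94% to 3.41%), above those of Esrrb in each line. At the most CpG-dense sites of the whole genome the levels were 0.211%, 0.153% and 0.463%, in the same order of lines. The knockout was thus the highest there too, and a gain particular to Esrrb was not tested. Just before the intervals, the dense sites of Rif1 had 1 of 1161, 7 of 1373 and 2 of 1783 reads methylated, those of Tet2 0 of 1056, 4 of 694 and 4 of 1381, and those of Sall4 1 of 556, 3 of 461 and 2 of 688.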

How the data were processed

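Bisulfite libraries of 3 lines were used, with 2 runs per line and groups taken from the titles. The deposited tables list, per CpG, the coverage in reads and the count of methylated reads, as their headers state. The deposited fraction of the SETD2 knockout was not used. Both knockout files were identical and entered once, with no site under 10 reads (44.7% of 20782144 CpGs). The labels name mm9 as the build. Aligner, caller and duplicate treatment were not stated, so amplified copies may count as separate reads.

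The members and lists were chosen with earlier results of these data known. All 5 genes are named, with the highest and lowest 10 kb tile by DNMT3B1 over DNMT3A2, or the only tile for Sall4 and Rif1. Other pluripotency genes are not analysed here, since no annotation of build mm9 was used. Strands of Esrrb, Tet1 and Tet2 came from RefSeq, those of Sall4 and Rif1 from general knowledge. Sites had at least 5 reads in each line and at most 45, 40 and 80. Levels pool reads over sites. The variance of a ratio was taken over 500 bp clusters, and fewer than 3 methylated reads were set to 3 in ratios. Windows and tiles needed 20 sites, and end parts of windows 10. Software was matplotlib 3.10.9, scipy 1.17.1, Python 3.11.15, pandas 2.3.3 and numpy 2.4.6. The window statistic was tested on simulated data.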

Additional observations from a re-analysis of the deposited data

How the results depend on the processing

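No paired analysis was possible because each line has 1 set of values and its runs are not separate columns. The same holds for leaving out replicates. Of 179 other values of the relative log2 ratios, 163 kept their side of 0 or stayed with an interval that included it. Intervals excluded 0 no longer for Esrrb with DNMT3B1 over DNMT3A2 at a minimum of 1 read (-0.27), without a maximum (-0.27), on sites of those 2 lines alone (-0.18), against flanks (-0.21) and without the first of 5 parts (-0.13). The same was true of Tet2 at 10 reads (1.05) and against flanks (0.72), and of Sall4 below 20 CpGs per kb (0.53), where the knockout over DNMT3B1 changed sign (0.23). They came to exclude 0 for Tet1 with DNMT3B1 over DNMT3A2 at 10 reads (0.66), as a mean of site levels (0.62) and on sites of 2 lines (0.57). At 10 reads they also did for Tet1 with the knockout over DNMT3A2 (0.62) and for Rif1 (2.04 for DNMT3B1 over DNMT3A2, -1.97 for the knockout over DNMT3B1). Leaving out the cluster with most methylated DNMT3B1 reads, an alternative added after seeing the data, did so for Esrrb with the knockout over DNMT3B1 (0.37). Extending 3 genes to their RefSeq start, also added, changed no call.

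Against flanks, the other flank sizes and sides moved the calls of 18 of 60 values. With 50 kb Tet1 changed sign (0.87, 0.90 and 1.04 in the order DNMT3A2, DNMT3B1, knockout), and Tet2 in the knockout (-0.54) and Rif1 with DNMT3A2 (-0.38) lost their call. With 200 kb Tet1 (-0.39) and Tet2 (-0.56) with DNMT3A2 and Rif1 in the knockout (-0.72) gained one, and Tet2 in the knockout lost it (-0.48). The upstream flank alone ended it for Tet2 (-0.43) and Sall4 (-0.51) in the knockout and Rif1 with DNMT3A2 (-0.37), and gave one for Tet2 (1.01) and Rif1 (1.18) with DNMT3B1. Of these upstream sites, 66 of 308 for Tet2 and 99 of 379 for Rif1 were CpG-dense sites just before the interval. With DNMT3B1, 4 of 694 and 7 of 1373 reads were methylated there. The downstream flank alone ended it for Esrrb with DNMT3A2 (-0.26) and DNMT3B1 (-0.41), and gave one for Tet2 with DNMT3A2 (-0.88) and Rif1 in the knockout (-1.005). Finer density bins changed none of 15 calls. With 10 parts, Tet1 (2.57, 4.14 and 1.69) and Sall4 in the knockout (4.26) lost the difference between the ends and Sall4 with DNMT3A2 (2.54) gained it. Tiles of 5 kb gave 8 higher and 4 lower of 46 member tiles for DNMT3B1 over DNMT3A2 (all tiles 6.52% and 8.05%), 4 and 5 for the knockout over DNMT3B1 (7.64% and 5.84%) and 3 and 1 for the knockout over DNMT3A2 (5.49% and 4.78%). At 10 reads these were, of 20 tiles, 2 higher and 3 lower for the first comparison (6.11% and 7%), 2 and 0 for the second (7.19% and 4.91%) and 0 and 2 for the third (4.98% and 3.64%). Depth limits Rif1 most, with 44 methylated DNMT3B1 reads.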

Other observations

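Of the 2175 compared CpGs in the 5 genes, none was methylated in at least 50% of reads in all 3 lines. In Tet1, 6 of 351 CpGs reached that share with DNMT3B1 (1.71%, against 0.592% of all sites compared), 1 with DNMT3A2 (0.285%, against 2.01%) and 0 in the SETD2 knockout (against 1.06%). Esrrb had 27, 5 and 10 such CpGs of 1186 in the order DNMT3A2, DNMT3B1 and knockout, and Tet2 had 2, 3 and 4 of 232. Rif1 had 2, 2 and 0 of 93, with a share for DNMT3B1 (2.15%) above that of Tet1, and Sall4 had 0, 2 and 1 of 313. Sites without a methylated read in any line made up between 40.9% in Tet2 and 54.0% in Sall4, shares that also depend on depth. Methylated DNMT3B1 reads of Rif1 came from 9 of its 46 clusters, those of Sall4 from 18 of 35 and those of Tet2 from 27 of 89.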
